A study of Homo sapiens with 6 samples.

Results

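MiR-26 sites are the positions at which Argonaute was crosslinked to RNA and for which the deposited annotation names a seed match to hsa-miR-26a-5p and hsa-miR-26b-5p, whatever the type of match and the part of the transcript. There were 384 such sites among 16230 listed sites, in 305 named genes. The sites came from PAR-CLIP of HK2 cells, an immortalised human cell line from the proximal tubule of the kidney, labelled wild type. In this method cells incorporate 4-thiouridine, ultraviolet light links it to bound protein, and the linked base is read as a changed base in the sequence. The groups compared were 2 libraries from cells labelled control and 2 from cells labelled with TGF-beta1, a cytokine that drives epithelial cells towards a fibrotic state, given at 20 ng/mL for 24 h. Per the labels' protocols, cells were starved of serum for 24 h and held 100 µM 4-thiouridine for the last 20 h, and were irradiated at 365 nm. A vehicle for the control cells is not named in the sources used here. All libraries come from 1 cell line, and the labels name no separate cultures for the replicates. The p-values therefore rest on library-to-library spread that could be purely technical. Another 2 libraries with IgG were not analysed here, so no background pull-down stands beside the values.

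MicroRNAs guide Argonaute to messenger RNAs by pairing of their seed, nucleotides 2 to 8 counted from the 5′ end, and the paired transcripts are in general translated less and degraded faster. The miR-26 family lies in introns of genes for small C-terminal domain phosphatases. It is known as a regulator of cell cycle, chromatin and signalling genes and has been studied in tissue fibrosis. Its mature sequences are shown because the listed sites cannot separate them. The seed is in capitals, and the sequences and loci are from RefSeq (GRCh38.p14).
hsa-miR-26a-5p: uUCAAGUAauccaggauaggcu
hsa-miR-26b-5p: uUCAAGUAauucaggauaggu
The seeds are identical. Counted from the 5′ end, miR-26b-5p carries the substitutions C11U and C21U relative to miR-26a-5p, and ends 1 nt earlier (21 against 22 nt). The gene MIR26A1 encodes its mature miR-26a-5p at chr3:37969413-37969434 within CTDSPL, and MIR26A2 at chr12:57824658-57824679 within CTDSP2. The mature miR-26b-5p lies at chr2:218402657-218402677 within CTDSP1. Of the 3 host genes 2 had any listed site, and 0 of these held a miR-26 site. Over all named genes with a listed site 6.99% held one, so 0 of 2 cannot be told apart from that share.

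Sites that hold much of the miR-26 signal are shown next, followed by the pair that passed the test between groups. Each line is the transcript strand, 5′ to 3′, from the deposited windows (hg38), and capitals mark the bases that pair with the seed. The crosslinked T is base 15 of each line, and base 16 in ZFP36L1 and GAS5 site 2.
ZFP36L1, chr14:68788668-68788697: aggagagACTTGAttttggtgctaaagttc
KPNA2, chr17:68046703-68046732: ttttacactgaaactaTACTTGAacagttc
SLC38A2 site 1, chr12:46360758-46360787: gatattttatgatttTACTTGAatgtgcct
SLC38A2 site 2, chr12:46360002-46360031: actggaagtgtgaatTACTTGAcaatgtat
GAS5 site 1, chr1:173864163-173864192: aactctctcactgatTACTTGAtgacaata
GAS5 site 2, chr1:173864180-173864209: gatctcaatccaACTTGAactctctcactg
SLC25A36, chr3:140979879-140979908: tatctagctgactttTACTTGAattgttca
VKORC1L1, chr7:65954238-65954267: tacaaacgactagttTACTTGAacgaggcc
NUCKS1, chr1:205714643-205714672: ggatgaagctggattTACTTGAaaatggag
UGCG, chr9:111934305-111934334: ggttgtgcttaacttgtggtgaactggACT
AMIGO2, chr12:47076559-47076588: tgaattaatgtaaatatatgtaatctgtgA
In SLC38A2, SLC25A36, VKORC1L1, NUCKS1 and GAS5 site 1 the 7-nt match TACTTGA starts directly after the crosslinked T. In UGCG and AMIGO2 the listed match starts 13 and 15 nt after it and runs out of the window, so 3 and 1 of its 6 letters can be seen. Over all members the listed match could be read whole at 358 sites, with 0 mismatches. It was cut by the end of the window at 21 sites, and at 5 sites it is a bulged match that was not read.

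The 4 libraries held 1714444 and 1926254 reads in control cells and 5293207 and 3415700 in TGF-beta1 cells, as recovered from the deposited values. Sites were listed with a crosslink in at least 2 libraries, and more sites lack crosslinks in the shallower control libraries. Of 12 marker genes of proximal tubule epithelium only PAX8 had any listed site, of 6 general epithelial markers CLDN1 and KRT18 had one, and of the markers of fibroblasts, endothelium, leukocytes and podocytes 0 had one. A list of Argonaute sites does not measure expression, so this neither bears out nor contradicts the labelled cell type. These are bulk libraries: less RNA of a gene and less Argonaute on each RNA cannot be told apart, nor can fewer cells and less RNA per cell.

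MiR-26 sites lay mainly in 3′ untranslated regions (3′ UTRs), the usual place of microRNA targeting. By the deposited GENCODE release 27 annotation 207 of the 384 sites (53.9%) were in a 3′ UTR, against 39.0% of all listed sites and 45.2% of sites with any seed family. Introns held 85, coding sequence 59, non-coding RNA 13 and intergenic sequence 13. The 3′ UTR sites carried 72.7% of the 5966 crosslinked reads at miR-26 sites, with a median of 11 reads over the 4 libraries, against 9 in coding sequence and 4 in introns.

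Among unbulged matches, the longer match had more reads. A 7-nt match to the whole seed was listed at 125 sites, with a median of 12 reads, and these sites held 46.2% of the miR-26 reads. The 152 sites with a 6-nt match to nucleotides 2 to 7 had a median of 7 reads and the 102 with a match to nucleotides 3 to 8 a median of 5. A bulged 7-nt match was listed at 5 sites, with a median of 21 reads. Over all families the medians of these match types, in the same order, were 12, 7, 6 and 6 reads. The 7-nt match was more frequent in 3′ UTRs (41.1% of sites) than in coding sequence (32.2%) and introns (18.8%). The same order held over the sites of all families, with 36.9, 26.015 and 20.5%. All of these are descriptions over sites, which share libraries and are not replicates.

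The crosslink lay most often at 1 place relative to the microRNA. If the pairing is extended without bulges, the crosslinked base stood opposite nucleotide 9, the first position beyond the seed, at 120 of 379 sites (31.7%), against 29.0% over all families. Among 42 seed families miR-26 ranked 13 by that share. The sites opposite nucleotide 9 had a median of 13 reads and held 42.4% of reads (48.4% over all families). Of the 125 sites with a 7-nt match, 85 (68%) had the match start directly after the crosslinked T, against 55.1% over all families, and those 85 had a median of 15 reads against 8 at the other 7-nt sites.

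Introns differed from messenger RNA exons in this register. Only 6 of 84 intronic miR-26 sites (7.14%) had the crosslink opposite nucleotide 9, against 85 of 204 in 3′ UTRs (41.7%) and 22 of 58 in coding sequence (37.9%). Over all families the shares were 12.4, 38.9 and 26.3%. No test was made of these shares.

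**Figure D1:**
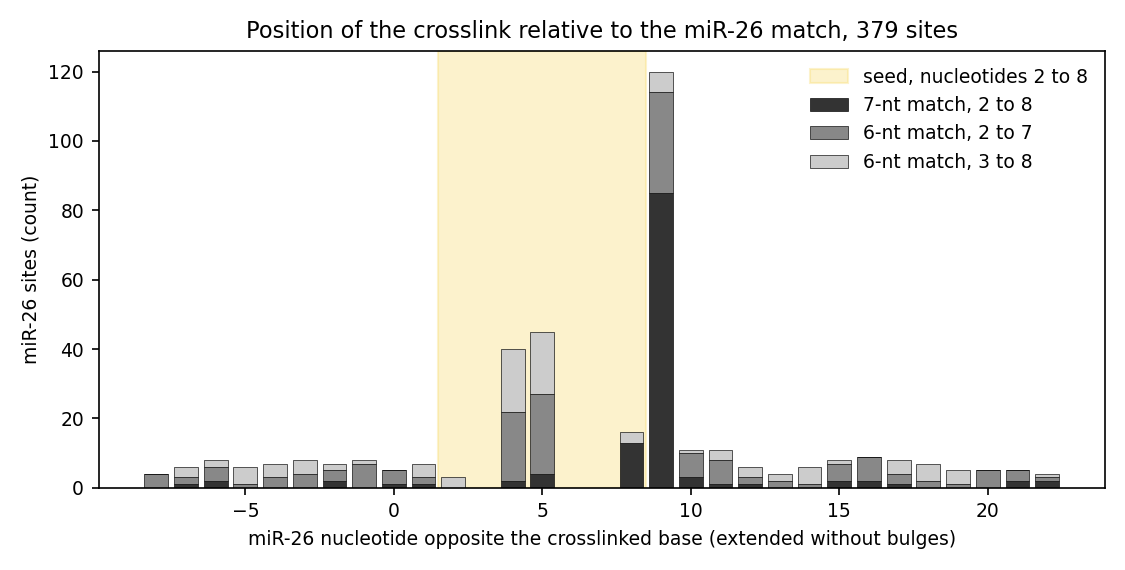
Number of miR-26 sites (vertical axis) by the miR-26 nucleotide that would stand opposite the crosslinked base if pairing continued without bulges (horizontal axis), stacked by match type, for 379 sites without a bulged match; the shaded band is the seed. The largest column, 120 sites, is at nucleotide 9 and is mostly 7-nt matches; the next are 45 sites at nucleotide 5 and 40 at nucleotide 4.

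Crosslinks within the paired letters are limited by those letters. PAR-CLIP crosslinks are read at T, and TACTTGA has T only opposite nucleotides 8, 5 and 4, which held 16, 45 and 40 sites. Another 3 sites, all with a match to nucleotides 3 to 8, had the crosslink opposite nucleotide 2, outside their match. A 6-nt match to nucleotides 2 to 7 cannot start directly after a crosslinked T in this family, because that T would make it a 7-nt match, and 0 of the 152 did.

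MiR-26 sites often continued into an A after the match, the base that Argonaute itself can hold. An A followed directly at 78 of 120 readable 7-nt sites (65%), against 45.5% over the 7-nt sites of all families. These 78 sites had a median of 14.5 reads, against 9 at the 7-nt sites without that A. Over all families the medians were 14 with the A and 10.5 without it. Among 6-nt matches to nucleotides 2 to 7, an A followed at 67 of 137 sites (48.9%), against 32.3% over all families. Pairing of the 3′ part of the microRNA was searched as the letters TCCT, the complement of nucleotides 13 to 16, in the 12 nt before a 7-nt match on the transcript strand. They stood before 6 of 116 miR-26 sites (5.17%) and before 4.65% of the 7-nt sites of all families. Median A and T content around the 7-nt match in 3′ UTRs was 66.7% at miR-26 sites and 66.7% over all families. In coding sequence it was 58.3% in both sets. In introns it was 54.2% at 15 miR-26 sites and 62.5% at 363 sites of all families, and no test was made of this.

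The deposited score for microRNA reads gives the miR-26 seed 20784 RPM, rank 5 of 42 families. By number of sites miR-26 ranked 9, and by share of crosslinked reads 10. Let-7, miR-30-5p and miR-29, with 546, 450 and 394 sites, held 6.76, 4.03 and 3.14% of the crosslinked reads on average over the 4 libraries, against 2.53% for miR-26.

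The miR-26 share of crosslinked reads was close in all libraries. It was 2.56% (95% Wilson interval 2.40 to 2.72) and 2.69% (2.56 to 2.83) in control cells, and 2.39% (2.28 to 2.50) and 2.47% (2.36 to 2.58) in TGF-beta1 cells. Reads without molecular identifiers are not independent molecules, so these intervals cover counting error only. The group means were 2.62% ± 0.095 and 2.43% ± 0.055 (SD, n = 2), and both treated libraries lay below both controls. No test was made of a sum over chosen sites, and 2 libraries a group could not pass an exact permutation test. Of the reads at 7-nt matches of any family, miR-26 took 3.53% ± 0.047 in control and 3.49% ± 0.011 in treated cells.

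Reads were concentrated on few sites. The highest site held 7.14% of all miR-26 reads, the highest 3 held 15.9% and the highest 12 held 30.99%, while the median miR-26 site had 8 reads over 4 libraries (7 over all sites). At 175 sites (45.6%, against 37.9% of all sites) all 4 libraries had a crosslink. Another 28 sites (7.29%, against 11.5% of all sites) had none in either control, and 3 (0.781%, against 1.19%) none in either treated library. Over the 175 sites, log2 values of libraries correlated at 0.65 between controls, 0.73 between treated libraries and 0.55 to 0.67 across groups, as a description over sites of the same libraries.

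The strongest site was in the 3′ UTR of ZFP36L1, which encodes an RNA-binding protein that promotes decay of AU-rich messenger RNAs. It had 31.6 and 37.5 scaled RPM in control and 37.9 and 39.1 in TGF-beta1 cells, where scaled RPM are crosslinked reads relative to the total of the library (RPM) after TMM scaling between libraries. It ranked 1 among miR-26 sites in all 4 libraries. Its 6-nt miR-26 match lies upstream of the crosslink, and the annotation lists a miR-29a-3p match starting 2 nt downstream. In the printed line the letters tggtgct, which pair with the whole miR-29a-3p seed, start directly after the crosslinked T. The site is therefore not assigned to miR-26 alone. Its log2 difference was 0.16 ± 0.23 (SE).

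KPNA2, an importin that carries proteins into the nucleus and is a reported miR-26 target, had the next strongest site. Its values were 26.03 and 24.4 in control and 24.0 and 29.1 scaled RPM in treated cells, so the groups overlapped. This site held 298 of the gene's 901 reads, 33.1%. Its 7-nt match is listed beside a miR-30-3p match upstream.

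SLC38A2, a sodium-coupled transporter of neutral amino acids, carried 3 miR-26 sites, each a 7-nt match directly after the crosslinked T. The sites in its 3′ UTR, 756 nt apart, had 19.4, 22.7, 17.2 and 19.1 and 7.20, 11.4, 7.69 and 6.28 scaled RPM in control 1 and 2 and TGF-beta1 1 and 2. The one in coding sequence had 2.77, 2.75, 1.85 and 4.85. Values of the groups overlapped at site 2 and at the coding site, and both controls were above both treated libraries at site 1. Together the sites held 353 of 1128 reads of the gene, 31.3%. No log2 difference of the 3 sites passed (limma adjusted p = 0.764, 0.707 and 0.926; -0.20 ± 0.28, -0.34 ± 0.39 and 0.12 ± 0.57, SE).

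Other leading sites with a 7-nt match directly after the crosslink lie in SLC25A36, a mitochondrial nucleotide carrier, NUCKS1, a nuclear DNA-binding protein, and VKORC1L1, a vitamin K epoxide reductase. SLC25A36 had 13.8 and 7.57 scaled RPM in control and 8.93 and 7.14 in treated cells. The VKORC1L1 site is the only one of the highest 12 in coding sequence and had 7.20, 2.06, 10.2 and 8.28. NUCKS1 had 4.98 and 5.85 against 9.54 and 5.14. Of these 3 only VKORC1L1 had both treated libraries above both controls, at a log2 difference of 1.02 ± 0.47 (SE) that did not pass (limma adjusted p = 0.220).

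Both GAS5 sites are annotated as intronic but lie inside SNORD81, a small nucleolar RNA within the GAS5 host gene, at chr1:173864146-173864222. They are 16 nt apart. Reads of the small RNA and of the host intron cannot be told apart there, and the matches are listed in an RNA whose known role is to guide modification of ribosomal RNA. Site 1 had 7.20 and 8.26 scaled RPM in control and 18.8 and 11.99 in treated cells, and site 2 had 8.31 and 5.85 against 14.5 and 7.995. Site 1 was higher in both treated libraries, at a log2 difference of 0.88 ± 0.35 that did not pass (limma adjusted p = 0.141). A further 3 miR-26 sites fell in SNORD2, SNORD17 and SNORD49B.

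The last of the 12 was a bulged match in the 3′ UTR of TRIB1, a pseudokinase that directs proteins to degradation. It had 2.77 and 4.47 scaled RPM in control and 8.003 and 8.85 in treated cells, with the groups apart. The log2 difference of 1.05 ± 0.45 did not pass (limma adjusted p = 0.174).

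**Figure D2:**
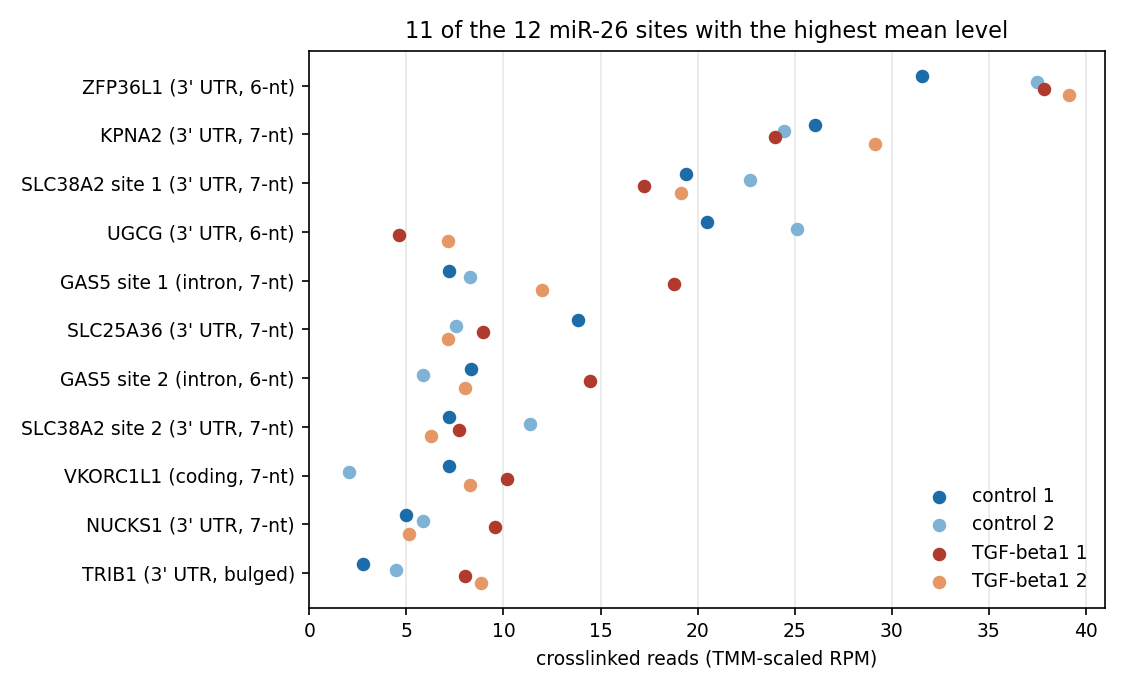
Crosslinked reads (horizontal axis, TMM-scaled RPM) at 11 of the 12 miR-26 sites with the highest mean level, 1 point per library, blue for control and red or orange for TGF-beta1. The UGCG site stands at 20.5 and 25.1 in control and 4.62 and 7.14 in treated cells, while the points of ZFP36L1 and KPNA2 lie close together or overlap.

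The comparison of control with TGF-beta1 cells was made over all sites that passed a filter on low counts. Of the 384 miR-26 sites 27 passed the filter (7.03%, against 6.52% of all sites), and these are the more heavily crosslinked ones, not all members. By limma, 2 of the 27 passed an adjusted p of 0.05 (7.41%), which is near the background: over all 1059 tested sites 7.18% passed. One was lower and the other higher, where 3.49% of all tested sites were lower and 3.68% higher. Before adjustment, p was under 0.05 at 5 higher and 2 lower miR-26 sites. The median log2 difference was 0.07 at miR-26 sites and 0.05 over all tested sites.

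UGCG, the synthase of glucosylceramide, the first step to most glycosphingolipids, held the miR-26 site that fell. The site in its 3′ UTR had 37 and 73 crosslinked reads in control and 15 and 25 in treated cells, although the treated libraries are deeper. In scaled RPM it went from 22.8 ± 3.27 to 5.88 ± 1.78 (SD, n = 2), 3.88-fold lower, at a log2 difference of -1.81 ± 0.34 (SE; limma adjusted p = 0.00171). It passed without each library in turn. It did not pass without the filter, without the variance trend, or on covering reads.

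AMIGO2, a transmembrane adhesion protein, held the site that rose. It had 5 and 0 reads in control and 29 and 22 in treated cells, where 0 reads in control 2 allow up to 1.03 scaled RPM. The log2 difference was 2.13 ± 0.61 (SE; limma adjusted p = 0.0329). This call is less stable, since it passed in 5 of 14 alternative settings and not when control 2, TGF-beta1 library 1 or TGF-beta1 library 2 was left out. The count of miR-26 sites that passed was 5 of 63 tested without control replicate 1, where 110 of 2306 sites passed over all. It was 1 without each of the other libraries, where 48 of 1868, 22 of 1260 and 24 of 1164 sites passed over all without control 2, TGF-beta1 1 and TGF-beta1 2.

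In both of these sites the match stands 13 or 15 nt from the crosslink. Of the 12 tested sites with a 7-nt match directly after the crosslink, 0 passed by limma (2 at an unadjusted p under 0.05, and 0 by edgeR). Their log2 differences ran from -0.76 to 1.02 with a median of 0.22. Of the 15 tested sites with the crosslink opposite nucleotide 9, 0 passed by limma (3 at an unadjusted p under 0.05, and 0 by edgeR). Over all tested sites 7.18% passed by limma, so 0 of 12 or of 15 cannot be told apart from the background. The standard errors of the 12 ranged from 0.28 to 0.69, so changes of up to about 1 log2 unit were mostly not detectable at this depth. VKORC1L1 at 1.02 and ZNF608 at 1.01 did not pass (limma adjusted p = 0.220 and 0.449). In simulated data with an assumed spread, 38% of 2-fold rises and 10.4% of 2-fold falls at well-covered sites passed by limma. For 4-fold changes these shares were 94 and 78.7%.

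Among the 15, the largest difference was at ATP9A, a lipid flippase, which was named after its values were seen. It had 4.98 and 8.95 scaled RPM in control and 1.85 and 1.43 in treated cells, with the groups apart, and did not pass (limma adjusted p = 0.0844).

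**Figure D3:**
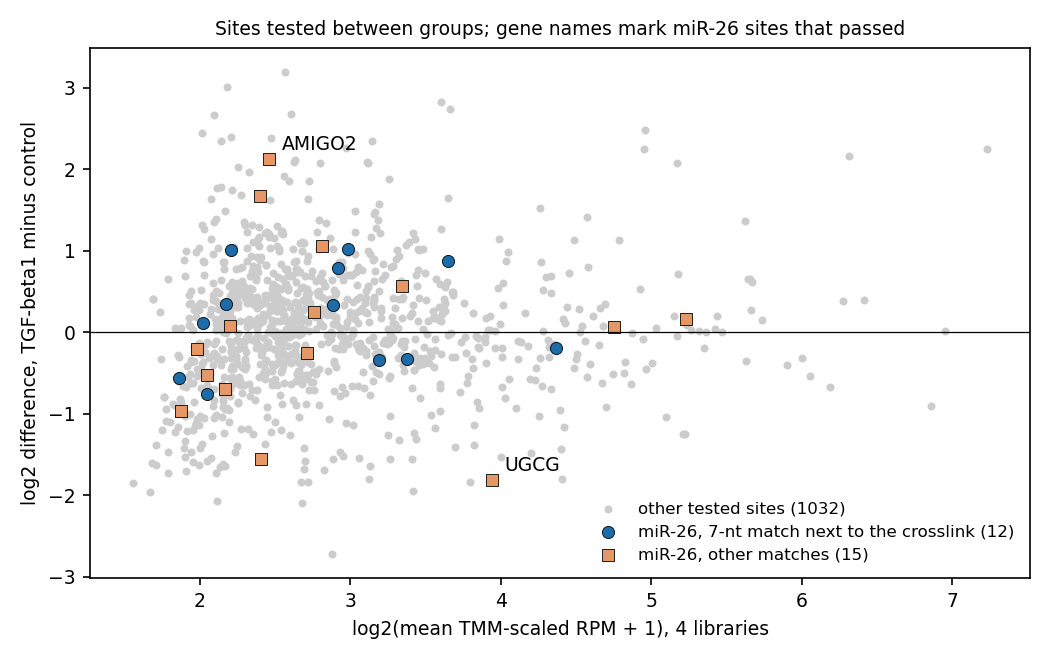
Log2 difference between TGF-beta1 and control (vertical axis) against log2 of the mean scaled RPM plus 1 (horizontal axis) for the 1059 tested sites. MiR-26 sites are circles (12 with the 7-nt match next to the crosslink) and squares (15 others), and the pair that passed is named; the circles lie between -0.76 and 1.02.

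The same test on reads summed over all sites of a gene asks whether genes with a miR-26 site changed. Of 208 tested genes with such a site, 11 passed by limma (5.29%), 7 higher and 4 lower, against 3.08% of all 1266 tested genes (1.58% higher and 1.5% lower). Tested genes with a miR-26 site had a median of 9 sites and 123.5 reads, against 4 sites and 75 reads for tested genes without one, and the part of this difference in the counts was not tested. Without control replicate 1, 0 of these genes passed by limma (33 higher and 13 lower before adjustment), and 0 with the second control left out (24 and 13). In these settings 0 of all 1868 and 0 of all 1681 tested genes passed. With TGF-beta1 replicate 1 left out the count was 9 (30 of 1325 over all tested genes), and with TGF-beta1 replicate 2 left out it was 6 (20 of 1263). The median log2 difference was 0.12, against 0.02 over all tested genes.

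UGCG and AHNAK passed in 10 of 14 alternative settings each and FN1, JAG1 and SCD in 9. AMIGO2 passed in 8, ACTG1 in 6, and COL4A1, PHLDA1 and ZNF91 in 5.

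The reads behind these calls were mostly not at the miR-26 sites. The miR-26 sites held from 0.802% (SCD) to 15.02% (JAG1) of the reads of the 11 genes. When only the reads at miR-26 sites were summed, 29 genes could be tested and 1 passed by limma, UGCG. In the fit on whole gene sums 3.08% of all tested genes passed, and 1 of 29 cannot be told apart from that share.

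UGCG was lower at its miR-26 sites and elsewhere. Its 37 other sites went from 164 ± 18.3 to 45.2 ± 2.30 scaled RPM (SD, n = 2), 3.64-fold lower, and its 2 miR-26 sites from 24.8 ± 4.63 to 6.40 ± 2.63, 3.88-fold lower. The gene sum passed (limma adjusted p = 0.000449). The second UGCG miR-26 site had 2, 2, 1 and 4 reads.

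AHNAK, a very large scaffold protein, fell by 1.51 on the log2 scale (limma adjusted p = 0.0104) and PHLDA1, a pleckstrin homology-like protein, by 1.06 (limma adjusted p = 0.0440), with 4 and 3 reads in all at their miR-26 sites.

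Of the genes that rose, JAG1, a Notch ligand, had the largest difference, 3.26 ± 0.52 (SE; limma adjusted p = 0.0104). Its 27 other sites had 6 and 2 reads in control and 96 and 94 in treated cells. One of its miR-26 sites had 1, 0, 13 and 13 reads and the other, with a 7-nt match, 3, 0, 3 and 2. The groups are apart at the first and overlap at the 7-nt one, and neither passed the filter for a test of its own. The log2 difference of the gene ran from 1.76 to 5.28 over the alternatives.

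FN1, fibronectin, rose by 1.77 ± 0.19 (limma adjusted p = 0.000449) and COL4A1, a basement membrane collagen, by 1.57 ± 0.36 (limma adjusted p = 0.0433). The 3 FN1 miR-26 sites together had 4 and 4 reads in control and 9 and 18 in treated cells, out of 2481 for the gene. The COL4A1 site had 0, 3, 10 and 7 reads and is listed beside miR-30-3p and miR-181 matches. At COL4A1 the other 12 sites went from 5.12 ± 1.77 to 15.8 ± 1.37 scaled RPM.

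AMIGO2 as a gene rose by 1.29 ± 0.23 (limma adjusted p = 0.0124), and its 29 other sites went from 21.9 ± 1.97 to 51.3 ± 7.56 scaled RPM, 2.35-fold. SCD, a fatty acid desaturase, rose by 1.25 (limma adjusted p = 0.0120) with 8 of its 997 reads at its 2 miR-26 sites. ZNF91, a zinc finger repressor of retroelements, rose by 1.40 and gamma-actin ACTG1 by 0.93 (limma adjusted p = 0.0378 and 0.0353). ZNF91 and ACTG1 have close sequence relatives among which reads could be split, so their counts are uncertain. The ACTG1 miR-26 site had 1, 0, 11 and 15 reads, whereas its other 40 sites went 1.86-fold from 44.2 ± 0.658 to 82.1 ± 3.42 scaled RPM.

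**Figure D4:**
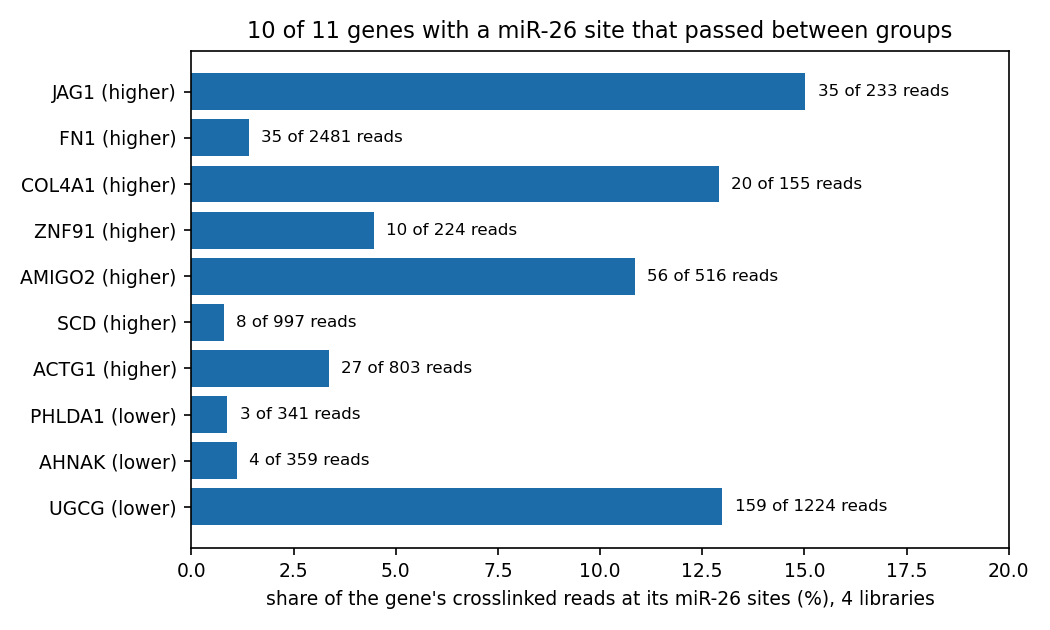
Share of each gene's crosslinked reads, summed over 4 libraries, that lay at its miR-26 sites (horizontal axis, percent) for 10 of the 11 genes with a miR-26 site that passed between groups, ordered by log2 difference and marked higher or lower after TGF-beta1. The shares run from 0.802% at SCD to 15.02% at JAG1, with both read numbers printed at each bar.

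Most genes with miR-26 sites had only 1: 268 genes had 1, 27 had 2 and 10 had 3 or more. DCBLD2, a transmembrane receptor-like protein, had 11. Of these 6 were intronic, 3 in coding sequence and 2 in the 3′ UTR, with 87 reads of the gene's 4268. CD164, a sialomucin, had 4 sites within 993 nt of its 3′ UTR, with 66 of 341 reads, none with an unbulged 7-nt match. NEAT1, a nuclear non-coding RNA, and TRIO, a guanine nucleotide exchange factor, also had 4 each, with 31 and 24 reads. CDK6, FN1, PLCB4, SF3B1 and SLC38A2 had 3 each, and none of these, FN1 aside, passed as a gene.

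A list of 44 genes reported as miR-26 targets was set beside the sites. It was compiled from general knowledge, with earlier results of these data known. Of the 44 genes, 31 had any listed site and 9 had a miR-26 site, among them CDK6, CTGF, HMGA1, HMGA2, JAG1, KPNA2, SMAD1 and TET3. That is 29.0% of the 31, against 305 of 4361 over all named genes (6.99%), as a description of a list compiled for this microRNA. The number of listed sites per gene was not taken into account. Among 17 tested members of the list 1 was higher (JAG1) and 0 lower by limma, where 1.58% of all tested genes were higher and 1.5% lower. The median log2 difference was -0.01, against 0.02 over all tested genes.

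The reported targets with a 7-nt site directly after the crosslink included the chromatin proteins HMGA1 and HMGA2, and the cell cycle kinase CDK6. HMGA1 had 6, 4, 2 and 5 reads at its site in control 1 and 2 and TGF-beta1 1 and 2, and CDK6 had 1, 1, 6 and 7 at this one of its 3 sites. The CDK6 site is higher in both treated libraries, and at HMGA1 the groups overlap. SMAD1, a transducer of bone morphogenetic protein signals, had 1, 1, 4 and 4 reads at its only site. CTGF, a matricellular protein, had 13 reads at 2 sites with 6-nt matches, and the methylcytosine dioxygenase TET3 had 7 of its 371 reads at its miR-26 site.

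Other pathways listed for this tissue and treatment held 0 to 3 genes with a miR-26 site each, to be read against the 6.99% of all named genes with a listed site that held one. Their calls by limma stand against 3.08% of all tested genes that passed (1.58% higher and 1.5% lower). Of 32 TGF-beta and SMAD genes 21 had a listed site and SMAD1 had one for miR-26 (4.76%), and of the 15 tested 6 rose and 0 fell, all without a miR-26 site. Of 32 extracellular matrix genes and modifiers, 18 had a listed site and 3 of these a miR-26 site (FN1, COL4A1 and CTGF, 16.7%), and of 13 tested 2 rose and 1 fell. Of 9 genes of the Polycomb list with a listed site, JARID2 and CBX5 had one for miR-26. CBX5 is a heterochromatin protein rather than a Polycomb member, and it stays in the counts of this list. Of 13 genes of the MAPK list, of kinases and phosphatases, DUSP5 had one, and of 25 genes of the ubiquitin ligase and deubiquitinase list KLHL42. These lists are not complete, and genes of the same kinds outside them that hold a miR-26 site are not counted here. Of 11 genes of the G1/S transition CDK6 had one, and of 3 TET and demethylation genes TET3. No test was made of these shares. By limma 0 of 5 tested genes of the Polycomb list, 0 of 5 cell cycle genes and 0 of 10 ubiquitin genes passed. The 4 tested CPEB and poly(A) regulators also gave 0. Each of these 4 lists had 1 gene at an unadjusted p under 0.05. The 6 tested MAPK genes and the 1 demethylation gene also gave 0, with 0 before adjustment. By edgeR 0 genes of these 6 lists passed. With 1 to 10 tested genes a list, a 0 cannot be told apart from the 3.08% of all tested genes. Of the 13 CPEB and poly(A) regulators, which act on messenger RNA tails, 10 had a listed site and 0 a miR-26 site. That 0 of 10 cannot be told apart from the 6.99% of all named genes. The median log2 difference of tested genes was 0.71 for the TGF-beta and SMAD list and 0.57 for the matrix list, and lay between -0.19 and 0.15 for the Polycomb, cell cycle, MAPK, ubiquitin and CPEB lists. The 1 tested demethylation gene, TET3, was at -0.50.

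Some miR-26 sites could belong to another family. The annotation lists a further seed match adjacent to or near the crosslink at 57 of the 384 sites, most often miR-30-3p (11 sites), miR-30-5p (10) and miR-27 (9). The other 327 list miR-26 alone and held 1.98, 2.08, 1.85 and 1.85% of the crosslinked reads in control 1 and 2 and TGF-beta1 1 and 2. Conversely 37 sites assigned to other families list a miR-26 match adjacent or near, and these are not counted here.

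Fewer of the covering reads carried a crosslink at miR-26 sites than at all sites. Over sites crosslinked in every library the share was 24.9 and 29.5% in control and 18.7 and 22.3% in treated cells at miR-26 sites, and 27.6 and 31.1% against 22.98 and 25.5% over all sites. Both treated libraries lay below both controls in each set.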

How the data were processed

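Argonaute PAR-CLIP libraries of HK2 cells, 2 control and 2 with TGF-beta1, were analysed for 384 miR-26 sites; the IgG libraries were not analysed here. The deposited table gives crosslinked and covering reads per site in RPM, which the authors scaled to the library total, per the file headers, and a microRNA score that the authors computed as RPM and rounded, per the file headers. Per the submitters' processing notes, bcl2fastq 2.20.0.422, STAR 2.7.1a, bedtools and hg38 were used; for crosslink calling, neither the program nor its thresholds is given in the sources used here. Another 4 columns of per-sample values match no sample of the series and were not used.

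All RPM values (100%) were whole multiples of 1 read within 0.1 reads, so reads and depths were recovered. The test was limma 3.58.1 (R 4.3.3) with a variance trend on log2(TMM-scaled RPM + 1), two-sided, Benjamini-Hochberg adjusted over all 1059 sites or 1266 genes that passed filterByExpr of edgeR 4.0.16 (minimum count 10), at 0.05. The plan named this test for RPM. TMM factors (0.614 to 1.51 over sites) came from features that passed the filter; this was settled after 76 sites and 39 genes had been seen against 42 and 65 with factors from all features, so that choice was not blind to the number of calls. The log2 scale understates changes of low sites. Gene values are sums over the sites of a gene name. DESeq2 1.42.0, edgeR and other settings were alternatives, and the fit was tested on simulated data. Wilson intervals and the 3 counts behind a 0 cover counting error only.

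The members, gene lists and marker lists were chosen with earlier results of these data known. Sites named were the 12 with the highest mean scaled RPM and those that passed; genes named were those with most miR-26 sites (ties included), those that passed and list members with a miR-26 site. A few genes that these rules name are not reported here. No genome was used here, so matches were read in the deposited 31-nt windows. The spans of gene sites and the nucleotide opposite a crosslink were computed from deposited positions.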

Additional observations from a re-analysis of the deposited data

How the results depend on the processing

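The count of miR-26 sites that passed (2 of 27 tested, and 76 of 1059 over all sites) was 1 without TMM (28 over all), 1 with a pseudocount of 0.5 (67), 1 by DESeq2 (42), 2 by edgeR (82) and 0 without the variance trend (25; 3 miR-26 sites higher and 3 lower before adjustment). Without the filter 0 of 384 and 0 of all 16230 sites passed (37 miR-26 sites higher and 8 lower before adjustment), and on covering reads 0 of 183 and 0 of all 7340 (17 and 10). With 1 library left out the count was 1 to 5. The count of genes (11 of 208 tested, and 39 of 1266 over all genes) was 5 without TMM (29 over all), 7 by DESeq2 (29), 13 by edgeR (48) and 0 without the trend (3; 15 miR-26 genes higher and 16 lower before adjustment). Without the filter 0 of 305 and 0 of all 4361 genes passed (27 and 23). With 3′ UTR sites only 21 of 140 passed, against 70 of 788 over all. On the miR-26 reads of the gene 1 of 29 passed, to be read beside the 39 of 1266 of the reported fit. With 1 library left out the count was 0 to 9, and the 0 held for all genes. With TMM factors from all features, an alternative added after seeing the data, 2 sites (42 over all) and 16 genes (65) passed. With the replicate number as a block, 4 of 27 sites and 17 of 208 genes passed, against 117 of 1059 and 57 of 1266 over all; same-numbered libraries deviated together at a correlation of only 0.117 over sites and 0.131 over genes over 2 pairs, and replicate numbers are not treated as pairs here. The mean miR-26 share of 2.53% was 2.698% of covering reads and 3.04% of 3′ UTR reads. For sites that list no further match adjacent to or near the crosslink it was 1.94%.

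Without TMM the median of all tested sites moved to -0.51 and of all tested genes to -0.45 on the log2 scale, and there ZFP36L1 (-0.49), KPNA2 (-0.57), GAS5 site 2 (-0.038) and NUCKS1 (-0.26) changed sign as sites and DCBLD2 (-0.27), KPNA2 (-0.20) and TRIO (-0.36) as genes; none of these passed in either setting. Covering reads turned CBX5 (0.039), HMGA1 (0.42), KPNA2 (-0.042) and SLC38A2 (0.12) as genes. The restriction to 3′ UTR sites turned CD164 (0.11), and factors from all features turned CD164 (0.088). With 1 library left out the KPNA2 site ran from -0.023 to 0.31, the SLC25A36 site from -0.76 to 0.12, and the gene sums of CBX5 from -0.25 to 0.055, CD164 from -0.26 to 0.27, CDK6 from -0.42 to 0.075, KLHL42 from -0.20 to 0.017 and TRIO from -0.12 to 0.53. The cause was not tested. The other 357 of 384 miR-26 sites did not pass the count filter and have no test in the reported fit.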
